A study of Homo sapiens with 6 samples.

Results

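Aminoacyl-tRNA synthetases, the enzymes that load each tRNA with its amino acid, were examined with the proteins that hold several of them together in K562 cells expressing wild type C/EBPα or its short isoform p30. The members were chosen by symbol, among rows named for a synthetase of one amino acid with or without a final 2, plus EPRS, FARSA, FARSB, AIMP1, AIMP2 and EEF1E1, a rule that uses no expression value. The genes described are 34 of the 17066 gene symbols in the tables: 18 cytosolic synthetases, 14 mitochondrial synthetases and 2 scaffold proteins. All 34 were listed in each of the 3 tables and exceeded 1 FPKM in every group. HARS, VARS, VARS2, SARS2 and EEF1E1 were not analysed here.

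K562, an established leukemia line of human origin, has erythroid features, and per the study it makes no C/EBPα of its own. RNA-seq was run on 6 samples, 2 replicates each of 3 stable lines that carry a PiggyBac transposon with a Tet-inducible promoter: wild type C/EBPα (CEBPA), the p30 isoform (P30), which lacks an N-terminal part of the protein, or the empty vector (CTR). Per the study, CEBPA mRNA can yield both the full-length protein and p30, and a blot of the CEBPA line is described as showing both. All samples, CTR included, received doxycycline at 200 ng/ml for 48 h, and uninduced cells are not among them. The lines were made separately, so that the transgene and the line cannot be told apart. For each gene the authors deposited a single FPKM per group, pooled over its replicates (FPKM divides fragments by transcript length and library size, so that genes of different length can be compared). No spread between replicates, error, depth or test can be computed from these values, and each comparison describes 1 pooled value against another. A change is a difference of log2(FPKM + 1), which understates the change of low genes, and a gene is called at least 1.5-fold or 2-fold lower or higher when that difference passes the log2 of the fold.

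Most amino acids have one synthetase for the cytosol and another for the mitochondrion, encoded by separate nuclear genes. Cytosolic EPRS, IARS, LARS, MARS, QARS, RARS, KARS and DARS are held in a multi-synthetase complex by the scaffold proteins AIMP1, AIMP2 and EEF1E1, while the other cytosolic enzymes act outside it. GARS and KARS each supply both compartments from a single gene, and EPRS charges glutamate and proline. Many cytosolic synthetase genes are known targets of ATF4, the transcription factor of the integrated stress response, which binds C/EBP-ATF response elements together with C/EBP family partners.

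Marker genes were used to check the labelled cells. Of the erythroid markers with a row, 6 of 6 exceeded 1 FPKM in every group, and their summed level was 1821 FPKM in CTR, 690.2 FPKM in CEBPA and 1239 FPKM in P30. The 5 granulocyte markers with a row summed to 7.03 FPKM in CTR, 42.0 FPKM in P30 and 8427 FPKM in CEBPA, nearly all of it S100A8 and S100A9, at 3731 and 4623 FPKM in CEBPA. ITGAM, from the same list, was at 2.59 FPKM in CTR, 14.3 FPKM in P30 and 2.43 FPKM in CEBPA. The 5 lymphoid and stromal markers summed to between 7.01 and 17.9 FPKM and none was at 0. In such bulk samples, fewer cells of a type and less RNA per cell cannot be told apart.

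The cytosolic synthetases were lower in CEBPA than in CTR for 13 of 18 genes (12 after centring on all genes or with equal sums of FPKM, where DARS turned), with a median change of -0.63 on the log2(FPKM + 1) scale. The median over all 13673 genes compared was -0.01, with 6902 of them lower, and over the 5800 above 20 FPKM it was -0.13. Of the 18, 10 were at least 1.5-fold lower and 6 at least 2-fold lower, beside 18.6% and 6.92% of all genes compared. With equal sums of FPKM, which shifted the median of all genes by 0.11, these counts were 8 and 5, without QARS and WARS at 1.5-fold and without IARS at 2-fold. None of the 18 was at least 1.5-fold higher, beside 24.0% of all genes. All 18 were above 20 FPKM, and these shares differ somewhat at such levels. Of the 5800 genes above 20 FPKM, 1274 were at least 1.5-fold lower, 462 at least 2-fold lower and 1058 at least 1.5-fold higher. Summed over the 18 genes, the level was 2271 FPKM in CTR, 2000 FPKM in P30 and 1550 FPKM in CEBPA, or 68.3% of CTR in CEBPA and 88.1% in P30.

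**Figure D1:**
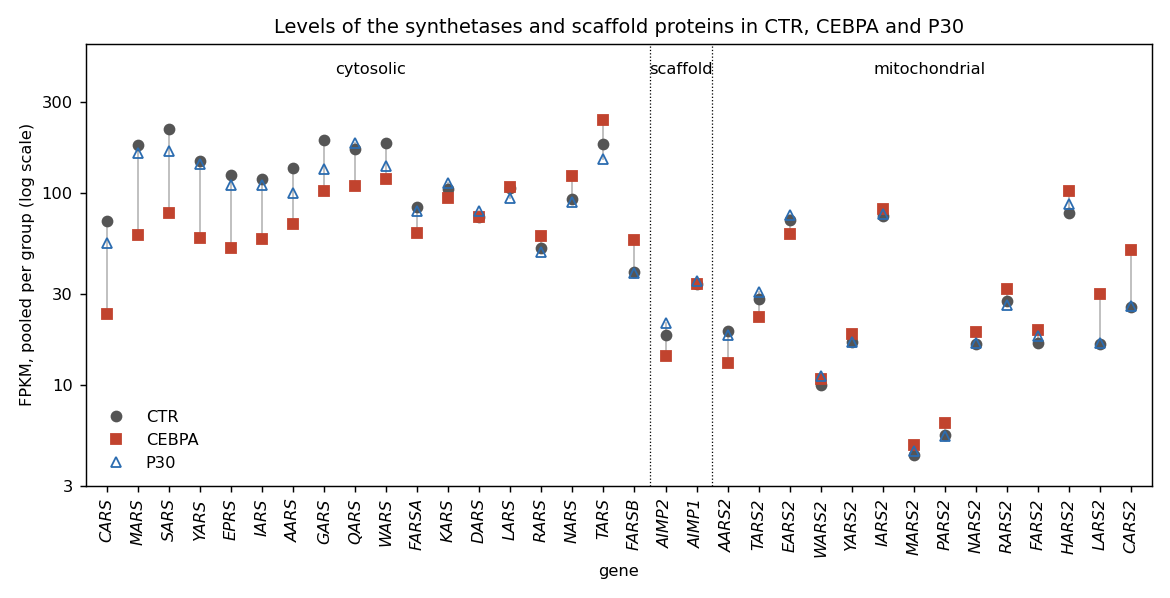
FPKM (log scale) of the 34 genes in CTR (grey circles), CEBPA (red squares) and P30 (open blue triangles), each a single value pooled over 2 replicates, with cytosolic synthetases, scaffold proteins and mitochondrial synthetases separated by dotted lines and ordered by change within each set. From CARS to WARS, the 10 leftmost genes, the CEBPA square lies at the bottom of the vertical line that joins the groups, and the mitochondrial genes lie mostly below the cytosolic ones.

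CARS, the cysteinyl-tRNA synthetase, had the lowest ratio. It was at 71.4 FPKM in CTR, 54.9 FPKM in P30 and 23.6 FPKM in CEBPA, or 3.03-fold lower in CEBPA than in CTR. MARS, which charges methionine on both the initiator and the elongator tRNA, was at 178 FPKM in CTR, 161 FPKM in P30 and 61.0 FPKM in CEBPA. SARS, the seryl enzyme that also charges the selenocysteine tRNA, was at 217 FPKM in CTR, 167 FPKM in P30 and 78.5 FPKM in CEBPA. For these 3 genes P30 lay between the others and nearer to CTR, and their changes in CEBPA were among the lowest 2.25% of all genes compared.

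YARS, the tyrosyl enzyme, was at 147 FPKM in CTR, 141 FPKM in P30 and 58.5 FPKM in CEBPA. EPRS was at 125 FPKM in CTR, 111 FPKM in P30 and 51.7 FPKM in CEBPA. IARS, the isoleucyl enzyme, was at 118 FPKM in CTR, 111 FPKM in P30 and 57.7 FPKM in CEBPA. The P30 values of these genes were within 1.13-fold of CTR, whereas CEBPA was at least 2.05-fold below CTR in each.

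AARS, the alanyl enzyme, was at 136 FPKM in CTR, 100.1 FPKM in P30 and 69.4 FPKM in CEBPA. GARS, the glycyl enzyme, was at 189 FPKM in CTR, 135 FPKM in P30 and 103 FPKM in CEBPA. WARS, the tryptophanyl enzyme and also an interferon-inducible gene, was at 182 FPKM in CTR, 139 FPKM in P30 and 118 FPKM in CEBPA. These genes were lower in both C/EBPα lines, by ratios of 1.96, 1.84 and 1.54 in CEBPA and of 1.36, 1.40 and 1.31 in P30. QARS, the glutaminyl enzyme, differed from them in that P30, at 183 FPKM, was above CTR at 170.5 FPKM, with CEBPA at 109.

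The remaining cytosolic enzymes did not pass 1.5-fold against CTR. KARS was at 105 FPKM in CTR and 94.5 in CEBPA, DARS at 74.97 and 74.94, LARS at 107 and 108, and RARS at 51.6 and 59.6. These are 4 of the 8 complex-bound enzymes, so that members of one assembly lay between a change of -1.53 (MARS) and 0.20 (RARS). NARS, the asparaginyl enzyme, was higher in CEBPA, at 123 FPKM against 93.1 in CTR and 89.96 in P30. TARS, the threonyl enzyme, was also higher, at 240.3 FPKM against 181 in CTR and 150.1 in P30, which made it the most abundant cytosolic synthetase in CEBPA, where SARS held that place in CTR and QARS in P30.

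Phenylalanyl-tRNA synthetase is built from α subunits encoded by FARSA and β subunits encoded by FARSB, and these differed in opposite directions. FARSA was at 84.8 FPKM in CTR, 81.0 FPKM in P30 and 61.9 FPKM in CEBPA. FARSB was at 39.1 FPKM in CTR, 38.5 FPKM in P30 and 57.3 FPKM in CEBPA. The FARSA to FARSB ratio was thus 2.17 in CTR and 2.10 in P30 but 1.08 in CEBPA.

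Sequence upstream of these genes was read from RefSeq windows of 300 bases (GRCh38.p14), 250 before to 50 after each annotated start, on the strand of the gene. Of the 34 members, 30 had a window, and AARS2, DARS, LARS and YARS had none. TGATGNAA, the core of C/EBP-ATF response elements, was searched on both strands. It was found for 8 of the 30 members (26.7%) and for 4.46% of all 27305 genes with a window. By compartment it was found for 7 of 15 cytosolic genes, namely AARS, CARS, GARS, IARS, MARS, NARS and TARS, and for 1 of 13 mitochondrial genes, YARS2. Among cytosolic genes with a window, it was found for 5 of 9 that were at least 1.5-fold lower in CEBPA than in CTR and for 2 of the other 6. NARS and TARS, both with a match, were higher in CEBPA, while AARS, CARS, GARS, IARS and MARS were lower. A match is not evidence that a factor binds there.

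The exact form TGATGCAA, singled out after the matches were seen, occurred in 6 of the members and in 1.08% of all genes, and 50 bases on either side of it are shown where the printed stretch allows, to let the shared 8 letters be compared in their different settings. The stretches are AARS chr16:70289636-70289743 (minus strand), CARS chr11:3057394-3057475 (minus), IARS chr9:92293668-92293760 (minus), MARS chr12:57488014-57488097 (plus), NARS chr18:57621807-57621872 (minus) and TARS chr5:33440917-33440994 (plus). Capitals mark the match, which reads TTGCATCA, the reverse complement, in all but NARS.
AARS: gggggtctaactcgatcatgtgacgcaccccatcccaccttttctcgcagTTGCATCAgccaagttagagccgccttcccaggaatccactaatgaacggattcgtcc
CARS: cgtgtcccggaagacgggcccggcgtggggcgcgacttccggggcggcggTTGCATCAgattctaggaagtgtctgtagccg
IARS: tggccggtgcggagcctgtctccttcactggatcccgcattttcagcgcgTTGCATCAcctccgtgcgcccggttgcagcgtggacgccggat
MARS: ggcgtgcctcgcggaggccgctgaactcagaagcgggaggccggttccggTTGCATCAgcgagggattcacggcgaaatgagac
NARS: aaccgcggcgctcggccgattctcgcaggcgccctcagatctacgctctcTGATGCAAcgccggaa
TARS: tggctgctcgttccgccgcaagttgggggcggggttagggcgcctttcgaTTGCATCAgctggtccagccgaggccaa
The match began at -2 for CARS, -4 for MARS, -13 for IARS, 2 for TARS and 14 for NARS, counted in bases from the start, so that in these 5 genes it lay at or near the start itself, and at -187 for AARS. Of the other motifs searched on both strands, TTGCNNAA was found for AIMP1 and KARS, or 6.67% of the members beside 12.7% of all genes. It is a form of the C/EBP site with the bases marked N left free. CACGTG, the E-box bound by MYC and its relatives, was found for AIMP2, CARS2, EARS2, IARS and MARS2, or 16.7% beside 8.77%.

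Complex-bound and free cytosolic enzymes both had a median below 0 in CEBPA vs CTR, where 18.6% of all genes were at least 1.5-fold lower. The 8 enzymes of the complex had a median change of -0.40, with 4 at least 1.5-fold lower. The 10 free enzymes had a median of -0.75, with 6 at least 1.5-fold lower. In CEBPA vs P30 the order turned, with a median of -0.50 for the complex and -0.38 for the free enzymes. Synthetases also fall into 2 unrelated folds, and EPRS, which holds both, is in neither count. Of the 8 cytosolic class I enzymes, 6 were at least 1.5-fold lower in CEBPA than in CTR (median -0.83). Of the 9 class II enzymes, 3 were (median -0.15). QARS and WARS, both class I, did not pass 1.5-fold with equal sums of FPKM. Of the scaffold proteins, AIMP1 was at 33.5 FPKM in CTR, 33.6 FPKM in CEBPA and 34.8 FPKM in P30. AIMP2 was at 18.3 FPKM in CTR, 14.1 FPKM in CEBPA and 21.2 FPKM in P30.

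The mitochondrial synthetases were slightly higher in CEBPA than in CTR for 11 of 14 genes, with a median change of 0.16. The cytosolic median minus the mitochondrial median was -0.79 on the log2 scale. None of the 14 was at least 1.5-fold lower, beside 18.6% of all genes, and 2 were at least 1.5-fold higher, beside 24.0%. Their summed level was 414.8 FPKM in CTR, 432.6 FPKM in P30 and 474.1 FPKM in CEBPA.

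Of these, CARS2, the mitochondrial cysteinyl enzyme, was at 25.7 FPKM in CTR, 25.8 FPKM in P30 and 50.6 FPKM in CEBPA. LARS2, the mitochondrial leucyl enzyme, was at 16.4 FPKM in CTR, 16.6 FPKM in P30 and 29.9 FPKM in CEBPA. Both were nearly equal in CTR and P30, and CEBPA was 1.97-fold and 1.82-fold above CTR. HARS2, the most abundant mitochondrial member, was at 79.4 FPKM in CTR, 87.5 FPKM in P30 and 103 FPKM in CEBPA. At the other end, AARS2 was at 19.2 FPKM in CTR, 18.2 FPKM in P30 and 13.0 FPKM in CEBPA.

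TARS2 and EARS2 also had lower values in CEBPA, at 22.5 against 28.3 FPKM and 61.5 against 72.9 FPKM in CTR. The other mitochondrial genes, WARS2, YARS2, IARS2, MARS2, PARS2, NARS2, RARS2 and FARS2, had changes between 0.11 and 0.22. They spanned 4.34 FPKM (MARS2) to 75.9 FPKM (IARS2) in CTR, and for the lowest of them the added 1 FPKM shrinks the change.

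**Figure D2:**
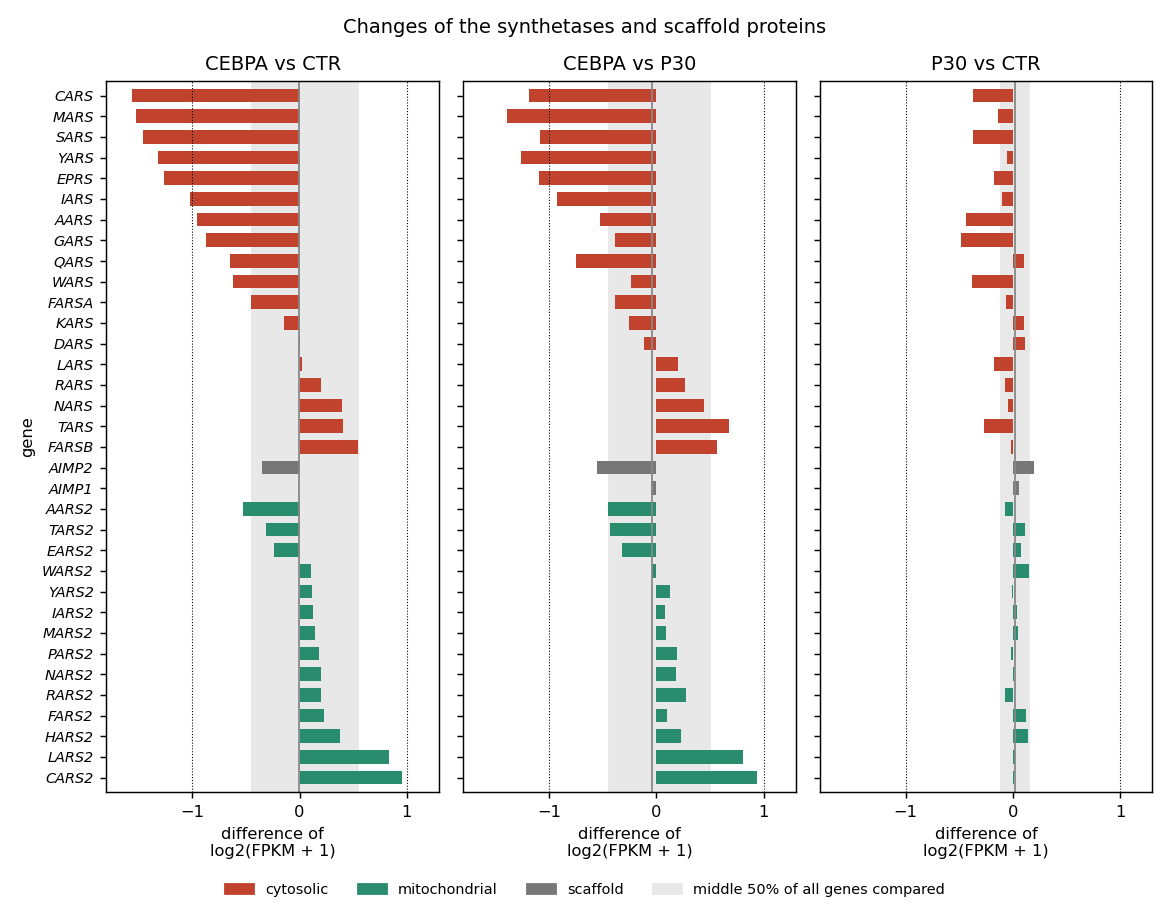
Differences of log2(FPKM + 1) for the 34 genes (bars) in CEBPA vs CTR, CEBPA vs P30 and P30 vs CTR, with cytosolic synthetases in red, scaffold proteins in grey and mitochondrial synthetases in green, the band marking the middle 50% of all genes compared, the grey line their median and dotted lines 2-fold. CARS, MARS, SARS, YARS and EPRS pass the 2-fold line in both comparisons of CEBPA, CARS2 and LARS2 extend the other way, and no bar in P30 vs CTR reaches it.

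The same genes can be paired by amino acid, which gave 14 pairs of a cytosolic and a mitochondrial gene, with EPRS and FARS2 each in 2 of them. The cytosolic change lay below the mitochondrial one in 10 pairs for CEBPA vs CTR, with a median difference of -0.77. For cysteine the order of levels turned: CARS was 2.79 times CARS2 in CTR and 2.12 times in P30, and 0.466 times in CEBPA. IARS was 1.56 times IARS2 in CTR and 0.698 times in CEBPA, and EPRS went from 1.72 to 0.841 times EARS2.

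MARS was far above MARS2 in every group, at 40.9 times in CTR and 12.4 times in CEBPA. For leucine the ratio of LARS to LARS2 went from 6.53 to 3.63 with LARS2 higher and LARS nearly equal. For threonine the ratio of TARS to TARS2 went the other way, from 6.41 in CTR to 10.7 in CEBPA, and was 4.89 in P30. The ratio of RARS to RARS2 for arginine stayed within 1.87 to 1.88 over the 3 groups.

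**Figure D3:**
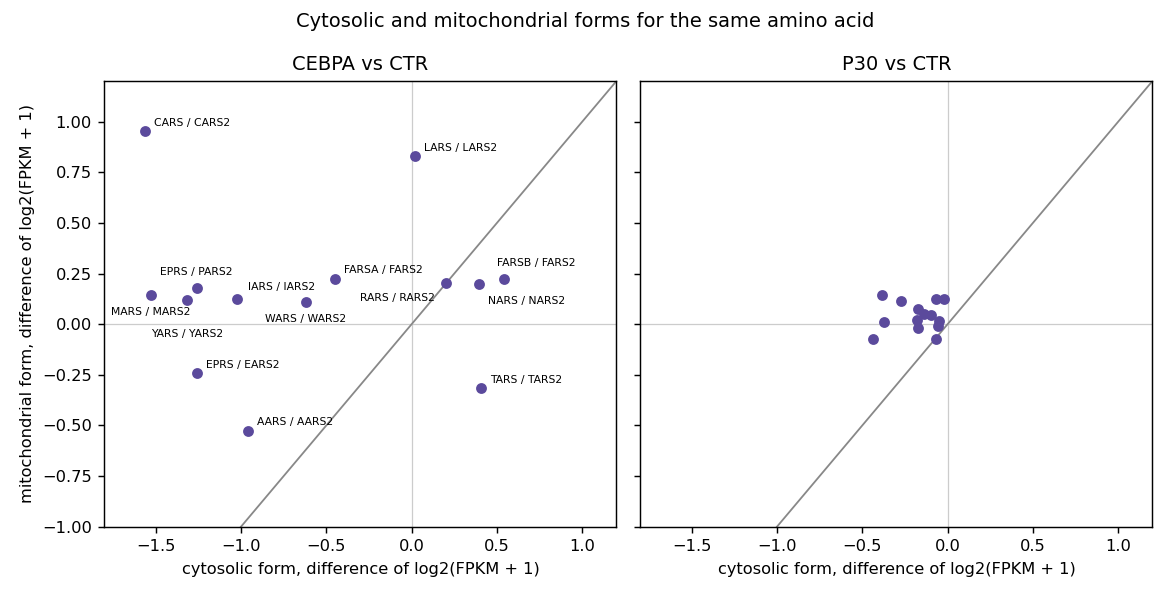
Change of the mitochondrial form (vertical) against that of the cytosolic form (horizontal), as differences of log2(FPKM + 1), for 14 pairs of genes (left, CEBPA vs CTR; right, P30 vs CTR), where points above the diagonal have the lower change in the cytosolic form. In CEBPA vs CTR 10 pairs lie above it, with CARS and CARS2 farthest away. In P30 vs CTR 13 lie above it, with a median difference of -0.19 and WARS and WARS2 farthest away (-0.53).

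Against P30 in place of CTR, the CEBPA libraries being the same in both comparisons, 13 of the 18 cytosolic genes were lower in CEBPA (12 with equal sums of FPKM, where DARS turned), with a median of -0.38 beside -0.04 for all 13569 genes compared. Of these, 7 were at least 1.5-fold lower and 5 at least 2-fold lower, beside 17.8% and 5.79% of all genes. With equal sums of FPKM, 3 were at least 2-fold lower, without EPRS and SARS. At least 1.5-fold lower in CEBPA than in both CTR and P30 were CARS, EPRS, IARS, MARS, QARS, SARS and YARS. With equal sums of FPKM, QARS did not pass this fold against CTR. CARS, EPRS, MARS, SARS and YARS were at least 2-fold lower than in both (CARS, MARS and YARS with equal sums of FPKM). The share of all genes lower than in both was not computed. TARS among the cytosolic and CARS2 and LARS2 among the mitochondrial genes were at least 1.5-fold higher in CEBPA than in P30, beside 22.3% of all genes. AARS, GARS and WARS were closer to P30 than to CTR, at ratios of 1.44, 1.31 and 1.18.

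In P30 vs CTR no member was at least 1.5-fold lower or higher. Few genes were, at 2.63% and 2.69% of the 12395 compared, so that this does not set the members apart. The cytosolic genes were lower in P30 for 15 of 18, beside 5569 of all 12395 genes. The cytosolic median was -0.12 beside 0.02 for all genes, whose middle 50% spanned -0.11 to 0.15. All 10 free cytosolic enzymes had a lower value in P30 (median -0.32), and 5 of the 8 complex-bound ones did (median -0.08). GARS (-0.49), AARS (-0.44), WARS (-0.39), CARS (-0.38) and SARS (-0.38) had the lowest values, among the lowest 6.43% of all genes compared. The 14 mitochondrial genes had a median of 0.03.

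Genes that supply the synthetases with amino acids were taken from lists of known members of each pathway. Of 11 amino acid synthesis genes, 7 were at least 1.5-fold lower and 1 at least 1.5-fold higher in CEBPA than in CTR (median -0.93), beside 18.6% and 24.0% of all genes. ASNS, asparagine synthetase, was at 219 FPKM in CTR, 112 FPKM in P30 and 35.4 FPKM in CEBPA. PHGDH, which opens the serine pathway, was at 132 FPKM in CTR, 83.7 FPKM in P30 and 51.5 FPKM in CEBPA. Both genes were lower in P30 than in CTR as well, with changes of -0.96 and -0.65. Of the 11, 3 were at least 1.5-fold lower there, beside 2.63% of all genes. PSPH, the last enzyme of serine synthesis, was instead higher in CEBPA, at 36.1 FPKM against 21.8 in CTR.

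Of 10 amino acid transporters, 6 were at least 1.5-fold lower in CEBPA than in CTR (median -0.98), beside 18.6% of all genes. Another 3 were at least 1.5-fold higher, beside 24.0%. None passed 1.5-fold in P30 vs CTR, where 2.63% of all genes were lower and 2.69% higher by that fold. SLC1A5, a glutamine carrier, was at 221 FPKM in CTR, 212 FPKM in P30 and 65.2 FPKM in CEBPA. SLC7A5, the leucine carrier, was at 51.2 FPKM in CTR, 39.6 FPKM in P30 and 20.7 FPKM in CEBPA, while its partner SLC3A2 was at 217, 204 and 213. SLC7A11, the cystine carrier, was higher in CEBPA, at 26.2 FPKM against 8.88 in CTR.

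Among 16 regulators of the integrated stress response and their targets, 6 were at least 1.5-fold lower and 3 at least 1.5-fold higher in CEBPA than in CTR (median -0.19), beside 18.6% and 24.0% of all genes. ATF4 was at 351 FPKM in CTR, 383 FPKM in P30 and 179 FPKM in CEBPA. ATF5, a related factor, was at 129 FPKM in CTR, 82.1 FPKM in P30 and 25.6 FPKM in CEBPA. DDIT3, TRIB3 and SESN2, also ATF4 targets, had changes between -0.25 and 0.21, and ATF3 was higher in CEBPA, at 27.0 FPKM against 10.8. In P30 vs CTR, 4 of the 16 were at least 1.5-fold lower, beside 2.63% of all genes, among them CHAC1, at 6.90 FPKM in CTR and 2.19 in P30. These are RNA levels, and ATF4 is controlled largely through its translation.

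The next step of protein synthesis, elongation, also has separate factors in each compartment. Of the 5 cytosolic elongation factors compared, 4 were at least 1.5-fold lower in CEBPA than in CTR (median -0.66), beside 18.6% of all genes. EEF1A1 was listed at 0 in every group, so it was not compared, and this value is not read here as absence of expression. EEF1D, a subunit of the exchange factor complex that binds VARS, was at 354 FPKM in CTR, 317 FPKM in P30 and 179 FPKM in CEBPA. The mitochondrial list holds 12 translation genes, most of them for steps other than elongation. Of these 12, 1 was at least 1.5-fold lower and none at least 1.5-fold higher (median 0.01), beside 18.6% and 24.0% of all genes. The medians of the cytosolic and mitochondrial lists therefore do not compare elongation between the compartments. GFM1, a mitochondrial elongation factor in the list, had a change of -0.48 in CEBPA vs CTR. Of 11 genes that handle tRNAs in other ways, 2 were at least 1.5-fold lower and 1 at least 1.5-fold higher (median 0.01), near or below the shares over all genes. XPOT, which exports tRNAs from the nucleus, was at 101 FPKM in CTR, 104 FPKM in P30 and 74.1 FPKM in CEBPA. TARSL2, a threonyl synthetase-like gene that the choice by symbol did not take in, was at 5.52 FPKM in CTR, 4.76 FPKM in P30 and 5.57 FPKM in CEBPA.

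**Figure D4:**
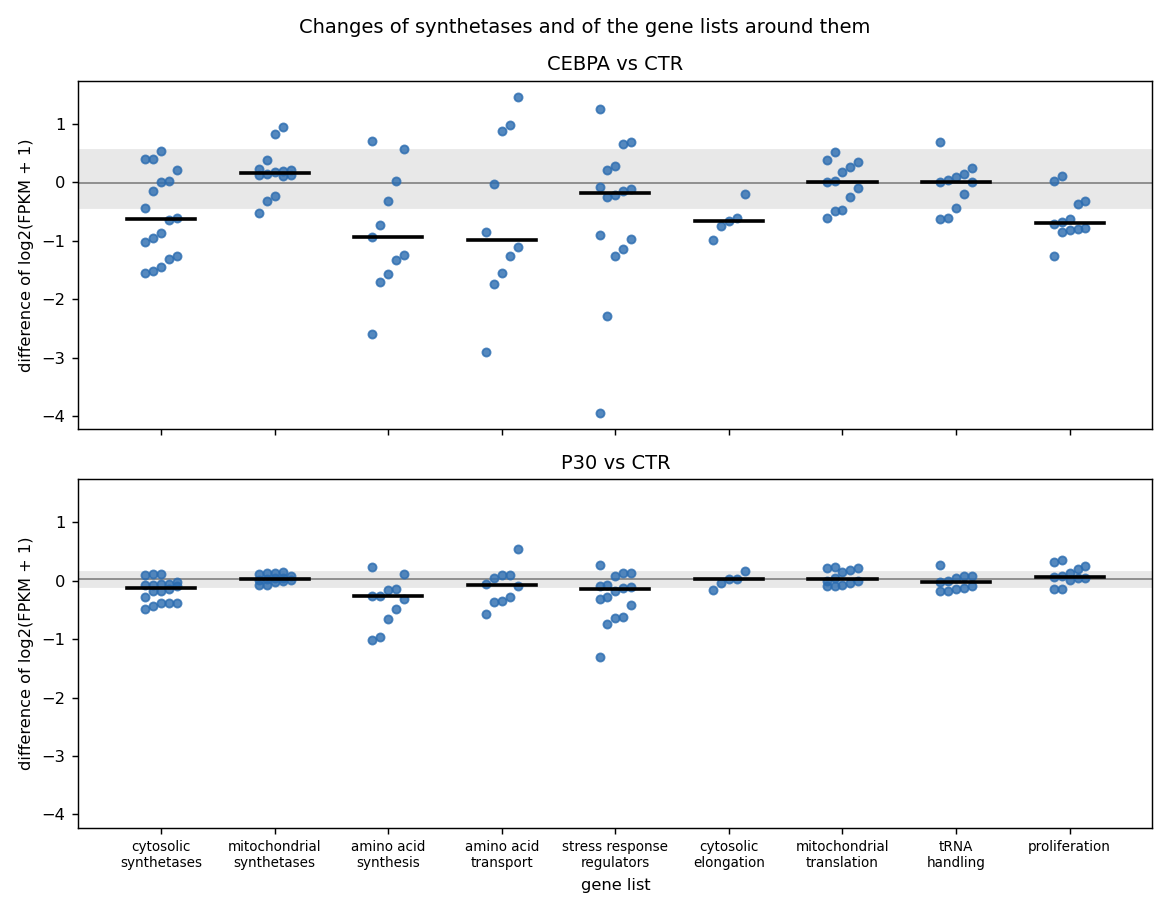
Differences of log2(FPKM + 1) between CEBPA and CTR (top) and between P30 and CTR (bottom) for the genes (points) of each list, with black bars for list medians, the grey band for the middle 50% of all genes compared and the grey line for their median. In CEBPA vs CTR the medians of cytosolic synthetases (-0.63), amino acid synthesis (-0.93), transport (-0.98) and elongation (-0.66) lie below the band, as does that of proliferation (-0.70), and those of mitochondrial synthetases (0.16) and mitochondrial translation (0.01) lie inside it.

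Proliferation genes were lower in the same contrast. Of 12 of them, 8 were at least 1.5-fold lower in CEBPA than in CTR (median -0.70), beside 18.6% of all genes. The sum of the 12 was 1213 FPKM in CTR, 1303 FPKM in P30 and 851.9 FPKM in CEBPA. The part of proliferation, and of the differing erythroid and granulocyte marker levels given above, in the synthetase values was not tested.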

How the data were processed

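RNA-seq was run on 6 samples of K562 cells, 2 each of CTR, CEBPA and P30, grouped by their labels. Per the study, reads were aligned by TopHat (hg19), Cufflinks built transcripts from a Gencode reference, and the replicates came from separate runs of different read length. The authors deposited FPKM from Cuffdiff in 3 pairwise tables, with 1 value per gene for a group and its replicates pooled. Depth per sample is not given in these values, so no count model, interval or test was used. Every deposited column was used (columns left out: 0).

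For every comparison, log2(FPKM + 1) was subtracted between groups where either exceeded 1 FPKM (16938, 16843 and 14956 rows in the tables), and called past 1.5-fold or 2-fold. The members, the gene lists around them and the motifs were chosen with earlier results of these data known. Beside the genes named as not analysed, 1 gene that matches the rule is not reported here and enters no count or median over the members. All members described are named, and other named genes belong to the lists. The computations were tested on simulated data. Alternatives were a pseudocount of 0.1, a filter at 20 FPKM, no filter, GARS and KARS left out, scaffold proteins counted as cytosolic, changes centred on their median and, added after seeing the data, equal sums of FPKM. Promoter windows came from RefSeq (GRCh38.p14), a later build than that of the reads. Scripts ran under Python 3.11.15 (numpy 2.4.6, pandas 2.3.3, matplotlib 3.10.9).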

Additional observations from a re-analysis of the deposited data

How the results depend on the processing

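The counts and medians of the cytosolic and mitochondrial synthetases in the 3 comparisons, 18 results in all, were recomputed 114 times with a pseudocount of 0.1, with other filters, with GARS and KARS left out, with the scaffold proteins added, after centring and with equal sums of FPKM. Of these values 113 stayed within 0.1968 on the log2 scale or, for counts, within 1.5 times, and 1 moved further. A reversal of sign was counted only for medians or differences of medians beyond 0.1968, of which 0 reversed. This left out the mitochondrial medians and the medians of P30 vs CTR with their difference, all smaller than that limit. Some alternatives could not move a result. Dropping the filter changed no member, the filter at 20 FPKM kept all 18 cytosolic genes, and centring cannot alter a cytosolic minus mitochondrial difference. With equal sums of FPKM, an alternative chosen after seeing the data, the cytosolic synthetases at least 2-fold lower in CEBPA than in P30 numbered 3 in place of 5, and those lower than in CTR 8 in place of 10 at 1.5-fold and 5 in place of 6 at 2-fold. This setting shifted the median of all genes by 0.11 in CEBPA vs CTR and by 0.13 in CEBPA vs P30, since the sum of FPKM was 609378 in CEBPA, 659597 in CTR and 668137 in P30. The cytosolic median in CEBPA vs CTR ranged from -0.64 to -0.52, in CEBPA vs P30 from -0.45 to -0.25 and in P30 vs CTR from -0.14 to -0.08. Under centring or equal sums, the sign of these genes near 0 flipped: DARS in CEBPA vs CTR, AIMP1, DARS and WARS2 in CEBPA vs P30, and CARS2, LARS2 and NARS2 in P30 vs CTR. No paired analysis was possible because every value pools both replicates, and for the same reason no replicate could be left out. Whether the differences between P30 and CTR exceed the spread between replicates cannot be read from pooled values.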
